A study of Rattus norvegicus with 25 samples.

Results

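The genes described here are Bmal1, Clock and Npas2, which encode the activators of the circadian clock, and Nr1d1 and Nr1d2, which encode the REV-ERB repressors. They were matched by symbol in the probe annotation of the array. Each of the 5 genes had 1 probe set that carries its symbol alone, so that 5 of the 29214 probe sets of the deposited table were members, and all 5 were among the 14607 probe sets with a mean level at or above the median that entered the tests. The rats were experimentally naive male Lister hooded offspring killed at postnatal day (PND) 35 to 42, and striatal RNA of each was hybridised to 1 Affymetrix rat gene 1.0st array. The Con-Pf group (n = 10) came from pair-fed dams, whose daily food was set to what matched nicotine dams had eaten, with free access to water. The Nic group (n = 7) came from dams that drank nicotine in their water, starting before mating. The Con group (n = 8) came from dams with neither treatment, and all animals were kept on a light-dark cycle. The methods state that each extraction day held the groups in equal numbers. The time of day at which each rat was killed, its litter and its own day of extraction are not stated in the sources used here. The p-values measure the spread between these animals. The methods give fewer pair-fed dams than the 10 Con-Pf rats, so some Con-Pf rats shared a dam. Whether rats within Con or within Nic did is not stated. Littermates were treated as independent, which makes the p-values of the tests and correlations too small.

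The labels leave a doubt over 2 arrays. Con-Pf 9 and Con-Pf 10 carry a description of a control beside a title and source of the pair-fed group, and were kept as Con-Pf. The study's account of its statistics gives the sizes of the Con and Con-Pf groups the other way round. These are the sizes the groups would have with both arrays counted as Con. The methods, however, remove arrays from Con and none from Con-Pf, which leaves the sizes used here. For Bmal1, Nr4a1 and Arc, the methods' t-test with both arrays kept as Con-Pf gave the p-values that the study printed. The study's tests therefore counted both arrays as Con-Pf. The log2 levels of Con-Pf 9 and Con-Pf 10 were 9.62 and 9.45 for Bmal1, above the highest of the 8 Con arrays. For Nr1d2 they were 10.10 and 9.99, below the lowest Con array. The calls of the 5 genes in Con-Pf are also given with these arrays left out and counted as Con. For the other clock genes only the counts are given in this way. Con 3 and Con 5 stood apart from the other arrays over all probe sets. The study's supplement reports a sample with a low RNA integrity number that was kept, and lays the value to likely problems of chip loading. Which sample this was, and whether it is among the arrays used here, is not stated.

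The circadian clock is a feedback loop of transcription. BMAL1 pairs with CLOCK, or in the forebrain with its close relative NPAS2, and the pair binds E-box sequences to switch on the period and cryptochrome genes, the PAR bZIP factor genes and the REV-ERB genes. REV-ERB alpha and beta, the products of Nr1d1 and Nr1d2, are heme-binding nuclear receptors that recruit co-repressors to ROR response elements and repress Bmal1, among other genes. In rodent tissues Bmal1 and the REV-ERB genes therefore peak at opposite times of day, whereas Clock varies little over the day in most of them. Npas2 is abundant in the striatum.

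The start regions of the genes that changed are shown first, to see which elements of the clock loop they hold. They are the 250 bases before the start sites given in the RefSeq promoter table for the GRCr8 rat assembly, 5′ to 3′ on the strand of the gene, with every match to a searched motif in capitals. Position -1 is the last base before the start site. Bmal1 lies on the forward strand of chromosome 1, and its window is chr1:176766078-176766327. Nr1d1 lies on the reverse strand of chromosome 10 and has 2 listed starts, with the windows chr10:84231813-84232062 for the distal and chr10:84229455-84229704 for the proximal start. Nr1d2 lies on the forward strand of chromosome 15, and its window is chr15:9954784-9955033.
Bmal1: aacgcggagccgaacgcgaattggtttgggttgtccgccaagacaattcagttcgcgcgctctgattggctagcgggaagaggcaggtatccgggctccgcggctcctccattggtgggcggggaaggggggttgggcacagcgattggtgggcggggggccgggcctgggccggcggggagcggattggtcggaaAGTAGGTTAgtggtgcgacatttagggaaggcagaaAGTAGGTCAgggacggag
Nr1d1 distal start: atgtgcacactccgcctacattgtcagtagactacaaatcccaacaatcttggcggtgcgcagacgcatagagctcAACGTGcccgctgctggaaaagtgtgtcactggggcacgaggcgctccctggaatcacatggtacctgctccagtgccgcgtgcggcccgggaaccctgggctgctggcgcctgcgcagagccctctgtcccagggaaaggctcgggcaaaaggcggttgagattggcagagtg
Nr1d1 proximal start: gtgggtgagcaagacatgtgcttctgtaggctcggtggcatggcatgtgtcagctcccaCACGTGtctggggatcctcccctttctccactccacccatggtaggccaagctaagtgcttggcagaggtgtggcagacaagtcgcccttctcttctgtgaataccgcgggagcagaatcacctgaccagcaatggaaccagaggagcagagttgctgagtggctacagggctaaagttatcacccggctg
Nr1d2: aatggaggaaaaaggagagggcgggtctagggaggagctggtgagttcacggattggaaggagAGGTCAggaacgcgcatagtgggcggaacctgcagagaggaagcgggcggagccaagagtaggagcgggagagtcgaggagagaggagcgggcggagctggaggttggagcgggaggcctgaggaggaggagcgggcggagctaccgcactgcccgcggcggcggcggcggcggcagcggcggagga

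The motifs searched on both strands were AGGTCA (the half-site bound by REV-ERB and ROR proteins), AGTAGGTNA (a longer form of the ROR element, which can contain AGGTCA), the E-box CACGTG, the variant E-box CACGTT, and the D-box forms TTACGTAA and TTATGTAA. The Bmal1 window held AGTAGGTNA at 2 places, at -54 to -46 and at -18 to -10. The element nearer the start contains AGGTCA. The Bmal1 gene is annotated from base 176766222, so both elements lie inside the annotated gene. Of 33469 promoter windows of the same length, 0.511% held AGTAGGTNA and 14.1% held AGGTCA. The proximal Nr1d1 window held 1 CACGTG at -191 to -186, which 5.59% of all windows had, and the distal window held 1 CACGTT, read on the reverse strand, at -174 to -169, which 4.07% had. The Nr1d2 window held 1 AGGTCA at -187 to -182 and no E-box of these letters. The windows of Clock (2 listed starts, chromosome 14) and Npas2 (chromosome 9) held none of the 6 motifs, and neither D-box form was found in any window of the 5 genes. The Npas2 window, 48959315 to 48959564, lies inside the gene, annotated from 48959225, so bases before that point were not searched. The presence of a motif is a description of the sequence, and no binding was measured.

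Bmal1 rose and both REV-ERB genes fell in the Con-Pf group against Con, while Clock and Npas2 did not pass the test. Of the 5 genes, 1 rose, 2 fell and 2 did not pass at an adjusted p under 0.05 from limma (Benjamini-Hochberg over 14607 probe sets), where 1.26% of all probe sets passed, 1% higher and 0.26% lower. The 184 probe sets behind this share became 104 to 480 with single arrays left out. Against Nic, Bmal1 rose and Nr1d2 fell, and the other 3 did not pass, where 0.185% of all probe sets passed. Between Nic and Con none of the 5 passed, and 0% of all probe sets did (limma, with 2370 at an unadjusted p under 0.05, and 0 also with the methods' t-test after adjustment). Any pair of these comparisons shares a group of arrays, so their values are given side by side and not as independent evidence.

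**Figure D1:**
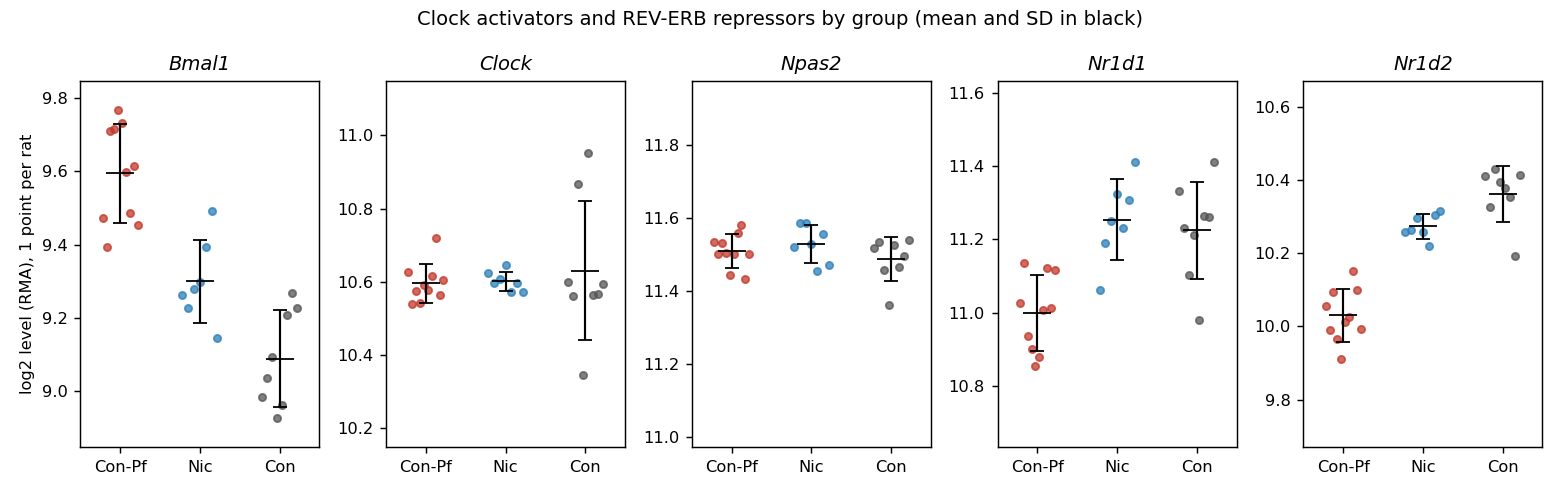
Log2 level of each gene on the 25 arrays, 1 point per rat, with the mean and SD of each group in black; every panel spans the same log2 range. The Con-Pf points of Bmal1 lie above all Con points and those of Nr1d2 below all Nic and all Con points, and the 2 highest Clock points are Con 3 and Con 5.

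Bmal1 (probe set 10710028) encodes the obligate partner of the activator pair. Its log2 level ran from 9.39 through a median of 9.61 to 9.77 in Con-Pf, from 9.14 through 9.28 to 9.49 in Nic, and from 8.93 through 9.06 to 9.27 in Con. All 10 Con-Pf arrays were above the highest Con array, a separation that 0.233% of all probe sets showed in this direction, and 6 of the 10 were above the highest Nic array, where 0.0685% of all probe sets had all 10 above. The mean was 9.59 ± 0.14 in the 10 Con-Pf rats, 9.30 ± 0.11 in the 7 Nic rats and 9.09 ± 0.13 in the 8 Con rats (± SD). Bmal1 was 0.51 higher on the log2 scale in Con-Pf than in Con (standard error 0.06, 95% interval 0.38 to 0.63, adjusted p = 5.46e-06 from limma), which is 1.42-fold. Of the 5 genes, Bmal1 in this comparison alone was past the thresholds that the study set, an unadjusted p of 0.01 and a log2 difference of 0.5. Against Nic it rose by 0.30 (standard error 0.06, 95% interval 0.17 to 0.42, adjusted p = 0.0334 from limma). This second call was lost without any one of Con-Pf 3, 4, 5, 6 and 9 and Nic 1, 2, 3, 4, 5 and 7 (adjusted p = 0.0501 to 0.14), with log2 fold changes of 0.27 to 0.31. With Con-Pf 9 and 10 left out both calls held (0.52, adjusted p = 1.81e-05, and 0.31, adjusted p = 0.0497, from limma), and with these arrays counted as Con the call against Con held (0.43, adjusted p = 0.0091) and that against Nic was lost (0.31, adjusted p = 0.455).

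Nic lay between the other groups for Bmal1. All 7 Nic arrays were above the Con median and 4 of them above the highest Con array, Con 7 with 9.27, where 0.0274% of all probe sets had all 7 above. The log2 fold change of Nic against Con was 0.21 (standard error 0.07, 95% interval 0.08 to 0.34), which did not pass over all probe sets (adjusted p = 0.268 from limma).

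Clock (probe set 10772249) encodes the activator with histone acetyltransferase activity that partners BMAL1. Its levels spanned 10.54 to 10.72 in Con-Pf (median 10.58), 10.57 to 10.64 in Nic (median 10.60) and 10.35 to 10.95 in Con (median 10.58). The Con group held both the highest and the lowest arrays, and its SD of 0.19 compared with 0.05 in Con-Pf and 0.03 in Nic. The log2 fold change was -0.04 in Con-Pf against Con (95% interval -0.15 to 0.08), -0.01 against Nic (-0.12 to 0.11) and -0.03 in Nic against Con (-0.15 to 0.09). The 2 highest arrays, Con 5 with 10.95 and Con 3 with 10.87, are also those that stood apart from the rest over all probe sets. Without them the fold change in Con-Pf against Con was 0.06 (adjusted p = 0.761 from limma), and the sign of each Clock difference turned in at least one of the alternatives tried.

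Npas2 (probe set 10922745), the forebrain counterpart of Clock, had the narrowest range of the 5 over the 25 arrays. It spanned 11.43 to 11.58 in Con-Pf (median 11.50), 11.45 to 11.59 in Nic (median 11.53) and 11.36 to 11.54 in Con (median 11.51), and the groups overlapped. Above the highest Con array were 3 of 7 Nic arrays and 2 of 10 Con-Pf arrays. Below the lowest Nic array were 2 of 10 Con-Pf arrays. The fold change on the log2 scale was 0.02 in Con-Pf against Con (95% interval -0.04 to 0.09), -0.02 against Nic (-0.09 to 0.05) and 0.04 in Nic against Con (-0.03 to 0.11). All 3 intervals lay between -0.09 and 0.11.

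Nr1d2 (probe set 10940575) encodes REV-ERB beta, and no Con-Pf array reached the level of any other array. Its level ran from 9.91 through a median of 10.02 to 10.15 in Con-Pf, from 10.22 through 10.26 to 10.31 in Nic, and from 10.19 through 10.39 to 10.43 in Con. All 10 Con-Pf arrays were below the lowest Nic array and below the lowest Con array, separations that 0.0137% and 0.0411% of all probe sets showed in this direction. The lowest Con array was Con 7, and the other 7 Con arrays were at 10.33 or above. The mean was 10.03 ± 0.07 in the 10 Con-Pf rats, 10.27 ± 0.03 in the 7 Nic rats and 10.36 ± 0.08 in the 8 Con rats (± SD). Nr1d2 fell by 0.33 against Con (standard error 0.04, 95% interval -0.41 to -0.26, adjusted p = 1.01e-06 from limma), to 0.794 of the Con level, and ranked 11 of 14607 by p. It fell by 0.24 against Nic (standard error 0.04, adjusted p = 0.001 from limma), rank 6, and was 1 of only 2 probe sets called lower there. Both calls held when any single array was left out, with adjusted p of at most 6.1e-06 against Con and 0.00538 against Nic (limma). They also held with Con-Pf 9 and 10 left out (-0.34, adjusted p = 6.26e-06, and -0.25, adjusted p = 0.00299, from limma). With these arrays counted as Con the call against Con held (-0.27, adjusted p = 0.0127) and that against Nic was lost (-0.25, adjusted p = 0.163). The fold change of Nic against Con was -0.09 (95% interval -0.17 to -0.01, adjusted p = 0.283 from limma), and all 7 Nic arrays were below the Con median.

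Nr1d1 (probe set 10746955) encodes REV-ERB alpha, the better known of the pair. Its level ran from 10.85 through a median of 11.01 to 11.14 in Con-Pf, from 11.06 through 11.25 to 11.41 in Nic, and from 10.98 through 11.25 to 11.41 in Con. The groups overlapped, with 7 of 10 Con-Pf arrays below the lowest Nic array and 4 of 10 below the lowest Con array, Con 5. All 10 were below both medians. The mean was 11.00 ± 0.10 in the 10 Con-Pf rats, 11.25 ± 0.11 in the 7 Nic rats and 11.22 ± 0.13 in the 8 Con rats (± SD). Nr1d1 fell by 0.23 against Con (standard error 0.05, 95% interval -0.34 to -0.11, adjusted p = 0.0364 from limma). This call was lost without any one of Con 1, 2 and 8 and Con-Pf 3, 4, 5, 6, 7 and 9 (adjusted p = 0.0506 to 0.0845), with log2 fold changes of -0.23 to -0.20. The difference from Nic was of similar size, -0.26 (standard error 0.06, 95% interval -0.37 to -0.14), and did not pass (adjusted p = 0.0604 from limma). It passed without any one of Con 5, Con 8, Con-Pf 2, Con-Pf 8 and Nic 1 (adjusted p = 0.0217 to 0.0499, log2 fold changes of -0.29 to -0.26). Nic and Con differed by 0.03 (95% interval -0.09 to 0.15). Without Con 3 and Con 5 the fall against Con was 0.29 (adjusted p = 0.00393 from limma) and that against Nic had an adjusted p of 0.0158. The call against Con held with Con-Pf 9 and 10 left out (-0.24, adjusted p = 0.047 from limma) and was lost with them counted as Con (-0.21, adjusted p = 0.198).

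The 3′ end of Nr1d1 overlaps that of Thra, the thyroid hormone receptor alpha gene, on the opposite strand, by 1061 bases of chromosome 10 in GRCr8. Where on the transcript the probes of the Nr1d1 set lie was not analysed here. The probe set of Thra had a log2 fold change of -0.01 in Con-Pf against Con (standard error 0.03).

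**Figure D2:**
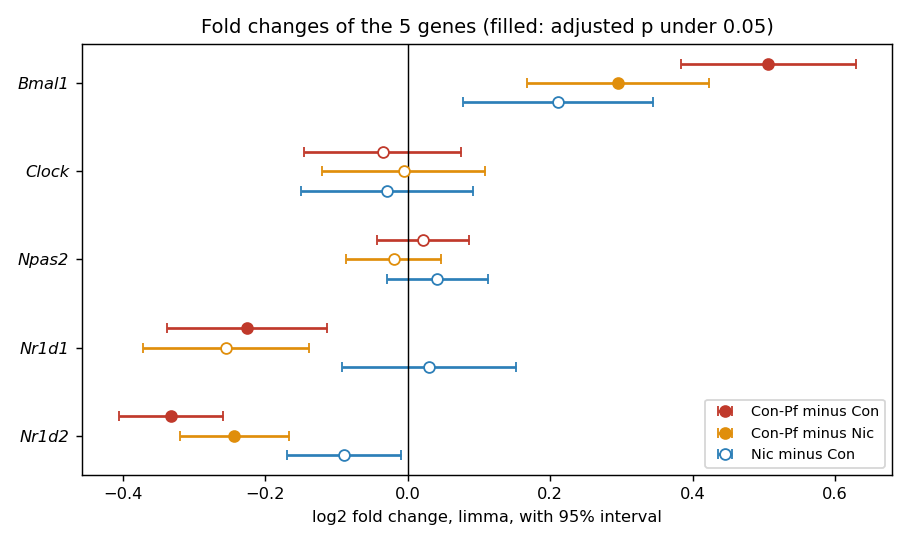
Log2 fold changes of the 5 genes with 95% intervals from limma, in 3 comparisons (Con-Pf over Con, Con-Pf over Nic, Nic over Con); filled points passed at an adjusted p of 0.05. Bmal1 lies at 0.51 and 0.30 in the comparisons with Con-Pf and Nr1d2 at -0.33 and -0.24, while all intervals of Clock and Npas2 cross 0.

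Within the Con-Pf group Bmal1 and Nr1d1 ran in opposite order from rat to rat. The 4 Con-Pf arrays with the highest Bmal1, Con-Pf 5 (9.77), Con-Pf 6 (9.73), Con-Pf 4 (9.72) and Con-Pf 3 (9.71), were the 4 with the lowest Nr1d1 (10.85, 10.88, 10.90 and 10.94 in the same order). Con-Pf 2, with the lowest Bmal1 (9.39), had the highest Nr1d1 (11.14). Pearson's r was -0.956 and Spearman's rho -0.952 over the 10 Con-Pf arrays (permutation p = 4e-05 and 0.00012, two-sided, adjusted p = 0.0012 and 0.0036 over 30 correlations, 10 pairs in each of 3 groups). Without Con-Pf 2 and Con-Pf 5, the 2 arrays farthest from the median of Bmal1, r was -0.929 (exact permutation p = 0.00181), and with any single Con-Pf array left out it lay between -0.982 and -0.944. Of the 14606 other probe sets, 3 (0.0205%), Nr1d1 included, had an r with Bmal1 of -0.956 or below in this group.

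No such relation was seen in the other groups. Between Bmal1 and Nr1d1 r was -0.0659 and rho 0.0357 in Nic (exact permutation p = 0.89 and 0.963, n = 7) and r was 0.475 and rho 0.524 in Con (exact permutation p = 0.24 and 0.197, n = 8). Whether the correlation differs between the groups was not tested. Over all 25 arrays, with the group means removed, r was -0.205 and rho -0.207 (permutation p = 0.346 and 0.341). Bmal1 and Nr1d2 had an r of -0.281 and a rho of -0.236 in Con-Pf (permutation p = 0.428 and 0.515), -0.193 and -0.357 in Nic (exact permutation p = 0.678 and 0.444), and -0.493 and -0.19 in Con (exact permutation p = 0.211 and 0.665). Over all 25 arrays their r was -0.345 and their rho -0.165 (permutation p = 0.121 and 0.453), and r was -0.505 without Con-Pf 2 and Nic 6. The REV-ERB genes themselves had an r of 0.211 and a rho of 0.235 over 25 arrays (permutation p = 0.344 and 0.274). After adjustment none of the 10 pairs passed over the 25 arrays, and of the 30 correlations within groups only that of Bmal1 with Nr1d1 in Con-Pf passed. The arrays were normalised together, and the values of a pair come from the same RNA sample.

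**Figure D3:**
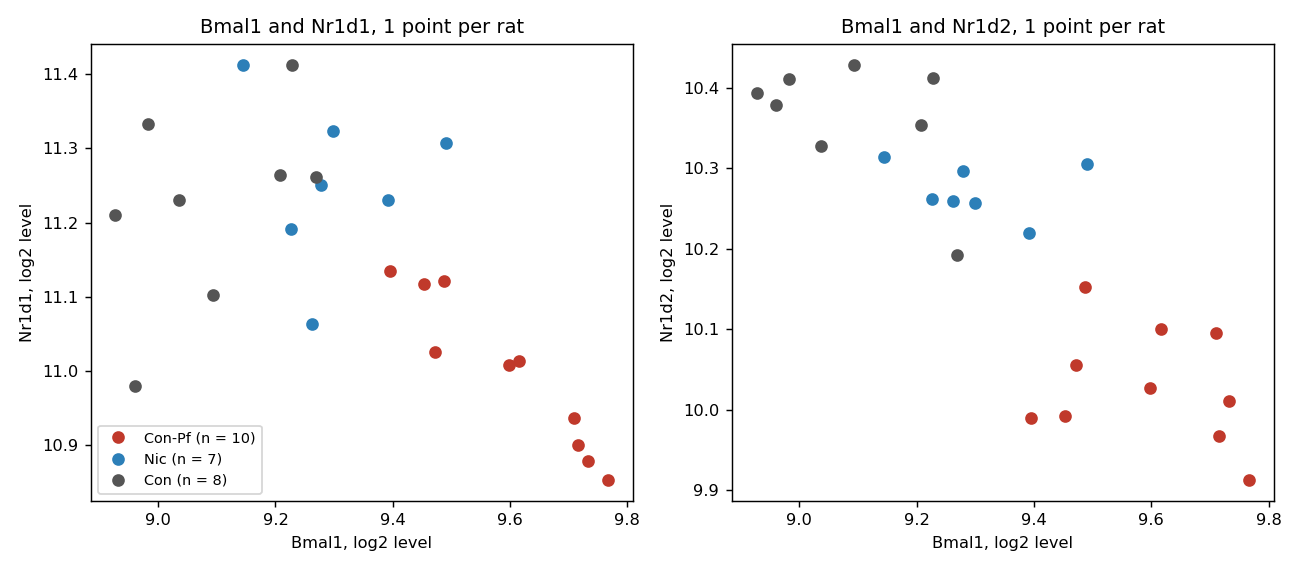
Log2 level of Nr1d1 (left) and Nr1d2 (right) against that of Bmal1, 1 point per rat, by group. On the left the 10 Con-Pf points fall along a line (r = -0.956) that the Nic and Con points do not follow; on the right the Con-Pf points lie below the others without such a line (r = -0.281).

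Other genes of the clock loop moved in both directions in Con-Pf against Con. Of 23 further clock genes listed, 16 had a probe set with 1 symbol and 14 entered the tests, of which 2 rose, 5 fell and 7 did not pass, where 1% of all probe sets were higher and 0.26% lower. Their median log2 fold change was -0.09, against 0.02 over the 8989 genes tested. With Con-Pf 9 and 10 left out 2 of these genes rose and 5 fell. With both arrays counted as Con only 1 rose and 1 fell, so most of these calls depend on the labels of these arrays. The list of E-box targets had 14 of 16 genes tested, with 1 higher, 8 lower and 5 not passed (median -0.21). Without the members Nr1d1 and Nr1d2 it had 12 tested, with 1 higher, 6 lower and 5 not passed (median -0.20). The list of genes repressed by REV-ERB had 6 tested, of which 4 rose, 0 fell and 2 did not pass (median 0.26), and Bmal1, Clock and Npas2 are among them. Without these members the 3 left, Cry1, Nfil3 and Fabp7, all rose. Both lists hold Cry1 and were chosen with earlier results of these data known, so that their counts are descriptions.

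Nfil3, which encodes a repressor of D-box genes and is itself repressed by REV-ERB, had levels of 7.51 to 7.87 in Con-Pf, 7.17 to 7.53 in Nic and 7.00 to 7.39 in Con. All Con-Pf arrays were above all Con arrays, as 0.233% of all probe sets were, and Nfil3 rose by 0.45 against Con (standard error 0.06, adjusted p = 2.56e-05 from limma) and by 0.31 against Nic (adjusted p = 0.0197). The call against Nic was lost without Nic 1, Nic 3 or Nic 5. Cry1, a repressor of the activator pair whose gene is also a REV-ERB target, rose by 0.24 against Con (adjusted p = 0.0191 from limma). Dbp, a PAR bZIP activator and an E-box target, fell by 0.36 against Con (standard error 0.07, adjusted p = 0.00905 from limma), and its relative Tef by 0.21. Per3, a period gene, fell by 0.33 against Con (standard error 0.04, adjusted p = 3.63e-05 from limma). Its Con-Pf levels of 9.12 to 9.28 all lay below the Con levels of 9.38 to 9.74, as 0.0411% of all probe sets did. Bhlhe40 and Bhlhe41, which encode the E-box repressors DEC1 and DEC2, fell by 0.34 and 0.22. Per1 and Per2 did not pass, with log2 fold changes of 0.22 and -0.18 against Con. The kinase genes Csnk1d (0.06) and Csnk1e (0.03), Cry2 (-0.04) and the ubiquitin ligase genes Btrc (-0.08) and Fbxw11 (-0.09) did not pass either.

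Against Nic, Nfil3 was the only 1 of the 14 to pass, and none passed between Nic and Con. Outside the list of clock genes, Wee1, a cell cycle kinase gene and an E-box target in mouse liver, fell by 0.23 and Fabp7, a fatty acid binding protein gene repressed by REV-ERB alpha in mouse brain, rose by 0.29 against Con (adjusted p = 0.0405 and 0.0451 from limma), both on the lists of targets above but picked out by name after their values were seen. Besides Wee1 and the members, the E-box targets tested outside the list of clock genes were Usp2 and Nampt. Their log2 fold changes against Con were -0.0056 and -0.0013, and neither passed. Fabp7 had log2 fold changes of 0.01 in Con-Pf against Nic and of 0.28 in Nic against Con, neither of which passed. Its lowest levels on any array were those of Con 3 (10.08) and Con 5 (10.16), which stood apart over all probe sets. Whether the call of Fabp7 against Con holds without these arrays is not given here. The co-repressor genes tested, Ncor1 (-0.05) and Hdac3 (-0.00), and the coactivator and modifier genes Crebbp, Ep300, Kat2b and Gsk3b (-0.04 to -0.01) did not pass in Con-Pf against Con. None of 126 correlations of Bmal1, Nr1d1 and Nr1d2 with the 14 clock genes within the groups passed after adjustment.

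**Figure D4:**
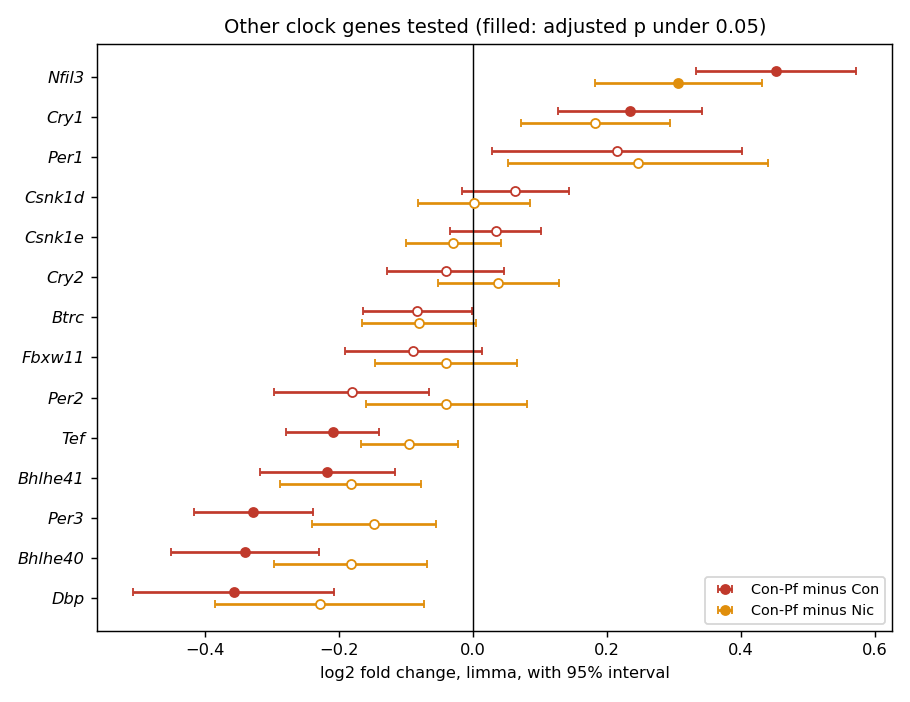
Log2 fold changes of the 14 other clock genes tested, with 95% intervals from limma, for Con-Pf over Con and for Con-Pf over Nic; filled points passed at an adjusted p of 0.05. Nfil3 (0.45) and Cry1 (0.24) lie at the top and Dbp (-0.36) at the bottom, and each gene with a filled point has the same sign in both comparisons.

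The genes most like each member from rat to rat were sought by Pearson's r over 25 arrays with the group means removed, among 8984 other genes, as a description. For Bmal1 the highest were Lpxn (0.85), Ctsf (0.828) and Rfc2 (0.823), and the lowest Rbpjl (-0.767), Rtn4r (-0.741) and Krtap5-8 (-0.733). For Nr1d2 the highest were Ythdc1 (0.787), Rab12 (0.74) and Reps1 (0.726), and the lowest Ndufs5 (-0.74), Kiaa0232 (-0.721) and Vkorc1l1 (-0.687). For Nr1d1 the highest were Lhfpl4 (0.873), Pmepa1 (0.845) and Gpaa1 (0.837), and the lowest Ahi1 (-0.783), Ncam2 (-0.736) and Exoc6b (-0.718). For Npas2 the highest were Actb (0.743), Pgbd5 (0.737) and Gnao1 (0.721), and the lowest Rpgr (-0.639), Fam118a (-0.635) and Ube2d3 (-0.635). Clock had the closest matches, Ap2a2 (0.955), Fry (0.949) and Sptan1 (0.946), and at the other end Ndufab1 (-0.926), Fam162a (-0.918) and Rnasek (-0.916). Without Con 3 and Con 5 these 6 values for Clock were 0.837, 0.805, 0.778, -0.721, -0.700 and -0.689. Among the genes named, the closest match was then Ctsf with Bmal1 (0.865) and not a match of Clock. The 6 values for Nr1d1 were 0.81, 0.76, 0.76, -0.65, -0.74 and -0.55 without these arrays, in the order above. None of the genes named here is a clock gene of the lists used.

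The 25 arrays correlated at 0.967 to 0.997 with each other, and Con 3 and Con 5 stood apart on the first principal component (scores of -25.2 and -33.9, with -11.6 to 9.63 for the rest). Markers of striatal projection neurons such as Drd2, Penk and Ppp1r1b were at the percentiles 99, 99.7 and 99.4 of all probe sets by level, and 0 of 9 such markers tested passed in any comparison. The same held for 5 oligodendrocyte, 6 astrocyte, 6 microglia and 5 endothelial markers. It also held for the 3 cortical or thalamic and 2 choroid plexus markers that entered the tests. All 3 cortical or thalamic markers were nevertheless lower in Con-Pf in both comparisons. Against Nic the log2 fold changes were -1.18 for Slc17a7 (standard error 0.38), -0.53 for Cck (0.17) and -0.10 for Prkcd (0.17). Against Con they were -0.63 (0.36), -0.19 (0.16) and -0.11 (0.17) in the same order. The 2 choroid plexus markers were higher in both. The lack of calls does not show that the dissected tissue was alike between groups. The summed level of the cortical or thalamic markers on the linear scale was 600.8 to 1150 in Con-Pf, 735.2 to 2417 in Nic and 807.7 to 1952 in Con, with Slc17a6 and Neurod6 below the filter, and that of the choroid plexus markers was 263.4 to 14220, 236.1 to 3193 and 246.2 to 11960 in the same order. Of 8 immediate early genes 7 rose in Con-Pf against Con and 6 against Nic, and their summed level on the linear scale ran from 10140 to 15740 in Con-Pf, 7239 to 10360 in Nic and 6201 to 8674 in Con. The part of these marker lists in the changes of the clock genes was not tested. In tissue RNA fewer cells of a type and less RNA per cell cannot be told apart.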

How the data were processed

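The authors processed the arrays with RMA (background correction, quantile normalization and summary of each probe set), and the deposited values are log2 levels for 29214 probe sets on 25 arrays, after their removal of 2 Con arrays and 1 Nic array. Affymetrix Expression Console 1.1 is the program in the submitters' processing notes, the study's methods name the affy package, and no genome build was given in the sources used. Array medians ran from 6.95 to 7.02. Groups were taken from sample titles. The filter kept probe sets whose mean reached the 0.5 quantile of all means. Of all probe sets 15310 carry 1 gene symbol, 323 several and 13581 none, and symbols were updated through gene IDs. Where a gene had several, the probe set with the highest mean stood for it.

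Tests were run in limma 3.58.1 (R 4.3.3) with 1 linear model over 3 groups, with Benjamini-Hochberg adjustment over 14607 probe sets and a threshold of 0.05. Steps were tested on simulated data. Correlations used 100000 permutations within groups, or all permutations for 7 or 8 arrays. The members and gene lists were chosen with earlier results of these data known. Named are all members, the listed clock genes called in a comparison, and for each member the 3 most and 3 least correlated genes; further list members were added. Alternatives were other tests, filters, scalings, samples and a replicate block. The number of arrays limits the precision that can be stated, and so does the unstated litter of each rat. Signal over background was not analysed here. Sequences came from RefSeq tables for GRCr8, in which all 5 members were found by symbol. Python 3.11.15 and matplotlib 3.10.9 drew the figures.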

Additional observations from a re-analysis of the deposited data

Results flagged for a closer look

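Of the 15 combinations of a member and a group, 3 held an array farther from its neighbours than Dixon's 95% critical value allows, and chance alone flags about 1 in 20 groups. Con-Pf 8 had the highest Clock level of the Con-Pf group, 10.72, apart from the next highest array. Con 4 had the lowest Npas2 level of the Con group, 11.36, and also the lowest Clock level of any array, 10.35. Con 7 had the lowest Nr1d2 level of the Con group, 10.19, and the highest Bmal1 level of that group, 9.27.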

How the results depend on the processing

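The rise of Bmal1 and the fall of Nr1d2 against Con passed under every alternative tried, at log2 fold changes of 0.43 to 0.53 and of -0.36 to -0.27. With the methods' t-test and with pooled variance, Bmal1 against Nic (0.30, adjusted p = 0.129 and 0.142) and Nr1d1 against Con (-0.23, adjusted p = 0.157 and 0.0928) no longer passed, 66 and 84 probe sets were called against Con and 6 and 8 against Nic, 1 other clock gene rose and 3 fell against Con, and 0 rose against Nic. With limma on the compared groups alone, Nr1d1 did not pass against Con (-0.23, adjusted p = 0.0714) and passed against Nic (-0.26, adjusted p = 0.0465), with 99 probe sets called against Con. With no filter, Bmal1 against Nic (0.30, adjusted p = 0.0916) and Nr1d1 against Con (-0.23, adjusted p = 0.098) were lost, 96 probe sets were called against Con, and 1 other clock gene rose against Con and 0 against Nic. With the filter at the 0.75 quantile, which tests fewer genes, 0 other clock genes rose in either comparison and 14 probe sets were called against Nic. With trend and robust moderation Nr1d1 passed against Nic (-0.26, adjusted p = 0.0482). With array weights it passed too (-0.28, adjusted p = 0.00105), 55 probe sets were called against Nic, 2 other clock genes rose and 2 fell there, and Nic minus Con turned sign for Clock (0.0133) and Nr1d1 (-0.0291). With arrays centred on their median, Bmal1 against Nic was lost (0.28, adjusted p = 0.101) and Nr1d1 against Nic passed (-0.27, adjusted p = 0.037). A further quantile normalization turned Clock against Nic to 0.0051. Counting Con-Pf 9 and 10 as Con lost Bmal1 (0.31, adjusted p = 0.455) and Nr1d2 (-0.25, adjusted p = 0.163) against Nic and Nr1d1 against Con (-0.21, adjusted p = 0.198), with 27 and 5 probe sets called, 1 other clock gene higher and 1 lower against Con, and 0 higher against Nic. Leaving them out gave 116 probe sets against Con. Without Con 3 and Con 5, 85 probe sets were called and 1 other clock gene rose against Con, Nr1d1 passed against Nic (-0.26, adjusted p = 0.0158), Clock turned to 0.0575 against Con and 0.0633 in Nic minus Con, and Nr1d1 to -0.0314 in Nic minus Con.

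Whether same-numbered animals are linked by matched dams or extraction day is not stated in the sources used here. The correlation of their deviations ran from -0.362 to 0.341 over the pairs, and 5 of 21 arrays correlated best with their own number. These values can neither show nor exclude such a link. With the replicate block, 96 probe sets were called against Con, Bmal1 against Nic was lost (0.31, adjusted p = 0.0932) and Nr1d1 against Nic passed (-0.29, adjusted p = 0.0422). It changed no other call of the 5 genes.

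With single arrays left out, the probe sets called against Con ran from 104 to 480 and moved by over 1.5 times without Con 1, Con 3, Con 4, Con 5, Con 6, Con 7, Con 8 or Con-Pf 2. Those called against Nic ran from 18 to 35. Log2 fold changes ran from 0.27 to 0.33 for Bmal1 against Nic, from -0.26 to -0.20 for Nr1d1 against Con, from -0.29 to -0.23 for Nr1d1 against Nic and from -0.0053 to 0.0615 for Nr1d1 in Nic minus Con. For Clock they ran from -0.0758 to 0.0106 against Con, from -0.0197 to 0.0014 against Nic and from -0.0699 to 0.0165 in Nic minus Con. The sign turned for Clock without Con 5 (against Con), without Con-Pf 2, Con-Pf 4 or Nic 4 (against Nic) and without Con 3 or Con 5 (Nic minus Con), and for Nr1d1 in Nic minus Con without Con 5. Other clock genes higher against Nic numbered 0 to 1.

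Of the correlations between members over 25 arrays, the sign turned for Bmal1 and Clock (0.125 without Con 3 and Con 5, 0.0338 with centred arrays), Bmal1 and Npas2 (0.0288 and 0.146) and Clock and Nr1d1 (0.287 without these 2 arrays). Clock and Npas2 passed without these arrays (0.717, adjusted p = 0.0134 by permutation) and after a further quantile normalization (0.622, adjusted p = 0.0243 by permutation), which also brought Bmal1 and Nr1d2 to -0.561 (adjusted p = 0.0243 by permutation). The correlation of Bmal1 and Nr1d1 in Con-Pf was -0.982 to -0.909 in all alternatives, with an unadjusted permutation p of at most 0.00181. These alternatives were chosen after seeing the data, and their p-values were not adjusted over the 30 correlations. The cause of these changes was not tested.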
